A study of Mus musculus with 18 samples.

Results

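The sirtuins and the genes of NAD synthesis were followed in preadipocytes depleted of SIRT6 during the first 40 hr of adipogenesis. The 10 genes were Sirt1 to Sirt7, Nampt, Nmnat1 and Nadk, taken by symbol from the probe annotation among 22180 genes that had a row of their own on the array. Each of the 10 had exactly 1 row that carried its symbol alone, and that row gives its value. The rule of membership used no measured value, although the genes, lists and tests were chosen with earlier results of these data known. The cells were 3T3-L1, an established line of mouse preadipocytes that hormones can turn into adipocytes, and their RNA was profiled on Affymetrix Mouse Gene ST arrays. Both WT and SIRT6 KD cells were taken before induction (0 hr, labelled untreated) and at 20 hr and 40 hr of differentiation (labelled treated), with 3 arrays in each of 6 groups and 18 arrays in all. Per the paper, SIRT6 was knocked down with a lentiviral short hairpin RNA, and adipogenesis was induced with IBMX, dexamethasone and insulin. The sample labels give genotype, time point and replicate but speak of mice and of an inhibitor and give the times without a unit, so the paper is the source for the cells, the hairpin and the unit of time. The methods name hairpin clones against SIRT6 and a control plasmid without saying which clone, or whether the control, was used for the arrays. The paper speaks of biological replicates for its cell culture studies in general, but neither it nor the labels say whether the replicate arrays came from separate cultures. If they did not, p values measure only a technical spread between arrays.

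Sirtuins are enzymes that remove acetyl and related acyl groups from lysines of proteins and consume NAD with every round of the reaction, so that each turnover releases nicotinamide. SIRT1, SIRT6 and SIRT7 are found mainly in the nucleus, SIRT2 mainly in the cytoplasm, and SIRT3, SIRT4 and SIRT5 in mitochondria. Nampt encodes the rate-limiting enzyme that recycles nicotinamide to nicotinamide mononucleotide, Nmnat1 the nuclear enzyme that completes NAD from it, and Nadk the cytosolic kinase that converts NAD to NADP, the precursor of the NADPH used in fatty acid synthesis. In fat cells, SIRT1 is known as a repressor of PPARγ, the main adipogenic transcription factor. NAMPT is also released by adipose tissue and is then known as visfatin.

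The values are log2 signals after RMA, a procedure that corrects the background, brings all arrays to the same distribution and summarises the probes of a transcript. Differences of log2 signals are log2 fold changes, and signals of different genes are not set against each other because probes differ in brightness. As a guide to background, the 95th percentile of the mean signals of 1405 rows for olfactory and vomeronasal receptors was 6.55, called the receptor level here. The means of all 10 genes over the 18 arrays were above it, as were those of 53.5% of the 23521 rows with 1 symbol. Arrays of the same group correlated at 0.9905 or more, and array medians ran from 6.41 to 6.54. However, 5 arrays were nearer to the other genotype of their time than to their replicates, namely all 3 SIRT6 KD arrays at 20 hr, replicate 1 of SIRT6 KD at 40 hr and replicate 3 of WT at 0 hr. Markers of preadipocytes had a mean signal of 10.65 to 10.78 in the arrays at 0 hr and of 10.24 to 10.37 later. By 40 hr, 8 of 10 fell and 1 rose in WT cells, and 6 fell and 1 rose in SIRT6 KD cells. Of all rows, 10.6% fell and 12.2% rose in WT cells by then, and 12.5% and 10.7% in SIRT6 KD cells. Of 10 adipocyte markers 9 rose by 40 hr in each genotype. The part of this shift in the changes after induction was not tested. The mean signal of the endothelial markers in an array lay between 5.64 and 6.05, and that of macrophage or leukocyte markers between 6.25 and 6.38. For epithelial markers it was 6.07 to 6.29, and for muscle markers 6.32 to 6.84. Above the receptor level were 0 of 4 endothelial, 2 of 5 macrophage or leukocyte, 1 of 4 epithelial and 3 of 4 muscle markers. In RNA from whole cultures, fewer cells of a type and less RNA per cell cannot be told apart. The number of arrays limits the precision.

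In the RefSeq annotation of GRCm38.p6, Sirt6 lies at chr10:81621787-81627792 and Sirt1 on the same chromosome at chr10:63319005-63339035. Sirt2 (chr7:28766752-28788665) and Sirt3 (chr7:140863663-140882309) share chromosome 7, and Nmnat1 (chr4:149467569-149485210) and Nadk (chr4:155562381-155591001) share chromosome 4. Nampt lies at chr12:32820335-32853369, Sirt4 at chr5:115478006-115490264, Sirt5 at chr13:43365389-43395203 and Sirt7 at chr11:120618371-120625014. The promoters of Nampt, Nadk and Sirt2 are shown because these are the genes whose signals changed with induction at an adjusted p under 0.05 in both genotypes. Each window, from RefSeq with build GRCm38.p6, holds 250 bases before and 50 after a transcription start. Capitals mark matches to CACGTG (the E-box that CLOCK and BMAL1 bind), GGGCGG or its reverse complement CCGCCC (the GC box), and CCAAT or ATTGG (the CCAAT box). The Nampt window lies at chr12:32820085-32820384, the Nadk window at chr4:155563565-155563864 and the Sirt2 window at chr7:28766502-28766801, all on the plus strand.
Nampt: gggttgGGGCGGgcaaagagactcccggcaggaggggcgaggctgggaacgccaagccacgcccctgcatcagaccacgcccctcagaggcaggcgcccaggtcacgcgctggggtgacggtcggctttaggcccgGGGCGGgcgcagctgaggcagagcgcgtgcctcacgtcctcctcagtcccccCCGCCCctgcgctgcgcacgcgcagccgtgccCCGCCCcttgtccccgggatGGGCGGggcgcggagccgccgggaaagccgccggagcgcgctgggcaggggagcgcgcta
Nadk: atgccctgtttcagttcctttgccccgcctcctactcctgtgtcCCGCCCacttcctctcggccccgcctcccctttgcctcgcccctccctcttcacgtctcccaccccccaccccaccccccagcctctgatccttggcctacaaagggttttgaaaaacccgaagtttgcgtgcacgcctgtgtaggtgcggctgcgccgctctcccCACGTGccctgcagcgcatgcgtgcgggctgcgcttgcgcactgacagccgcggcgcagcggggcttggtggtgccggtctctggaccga
Sirt2: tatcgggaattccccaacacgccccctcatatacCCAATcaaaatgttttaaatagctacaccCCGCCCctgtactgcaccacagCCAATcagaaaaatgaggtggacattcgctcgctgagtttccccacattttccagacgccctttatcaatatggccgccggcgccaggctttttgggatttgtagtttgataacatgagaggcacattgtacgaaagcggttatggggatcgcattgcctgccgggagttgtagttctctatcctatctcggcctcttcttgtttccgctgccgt
The Nampt window held 5 GC boxes, no E-box and no CCAAT box, and 76.3% of its bases were G or C. The Nadk window held 1 E-box and 1 GC box, whereas the window of a second annotated Nadk start, at chr4:155562131-155562430, held neither. Sirt2 had 1 GC box and 2 CCAAT boxes. RefSeq windows were found for all 10 genes, 14 in number because some genes have more than 1 annotated start. An E-box was present in a window of 2 of the 10 genes, Sirt1 and Nadk, and a GC box in that of 9 genes. Counted by window, 2 of 14 held an E-box and 10 of 14 a GC box. Of 32851 promoter windows in the mouse genome, 7.15% held an E-box, 35.7% a GC box and 37.4% a CCAAT box. A match is a stretch of letters and was not tested as a binding site.

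The shRNA target was examined first. Sirt6 signals were lower on average in SIRT6 KD cells at every time, with 88.6% of the WT signal at 0 hr, 81.3% at 20 hr and 85.7% at 40 hr. These are shares of an array signal and do not give the amount of SIRT6 protein left. The paper followed SIRT6 in its knockdown cells by western blot, and its mRNA by real-time PCR. WT arrays gave 7.17, 7.41 and 7.15 at 0 hr, 6.96, 7.34 and 7.28 at 20 hr, and 7.18, 7.08 and 7.13 at 40 hr. SIRT6 KD arrays gave 6.96, 7.21 and 7.03 at 0 hr, 6.73, 6.98 and 6.97 at 20 hr, and 7.07, 6.80 and 6.86 at 40 hr. The groups overlapped at 0 hr and at 20 hr, where the lowest WT array lay below 2 of the SIRT6 KD arrays, and were apart at 40 hr. The log2 fold change was -0.18 (95% CI -0.41 to 0.06) at 0 hr, -0.30 (95% CI -0.53 to -0.07) at 20 hr and -0.22 (95% CI -0.45 to 0.01) at 40 hr. None of the 3 passed limma's test after Benjamini-Hochberg adjustment over all rows (adjusted p = 0.768, 0.617 and 0.479). Averaged over the times, the difference was -0.23 with a standard error of 0.064 (95% CI -0.37 to -0.10), a signal of 85.1% of WT, with an adjusted p of 0.136. Taken as a single gene, Sirt6 gave p = 0.3, 0.3 and 0.1 at the 3 times in a two-sided exact permutation test, which cannot go below 0.1 with 3 arrays a side. The exact permutation test on the difference averaged over the times, permuting genotype within each time over 8000 splits, gave p = 0.005. Leaving out any 1 array kept the averaged difference between -0.27 and -0.20, with exact permutation p values from 0.00125 to 0.011. A further row is annotated to Sirt6 together with 4 predicted genes (Gm8158, Gm8112, Gm8264 and Gm8137). It gave signals between 11.17 and 11.49 in all 18 arrays, and its mean was 11.32 in WT and 11.37 in SIRT6 KD cells at 0 hr. At 20 hr the means were 11.29 in WT and 11.26 in SIRT6 KD cells, and at 40 hr 11.41 and 11.36. It was not used as a value of Sirt6.

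**Figure D1:**
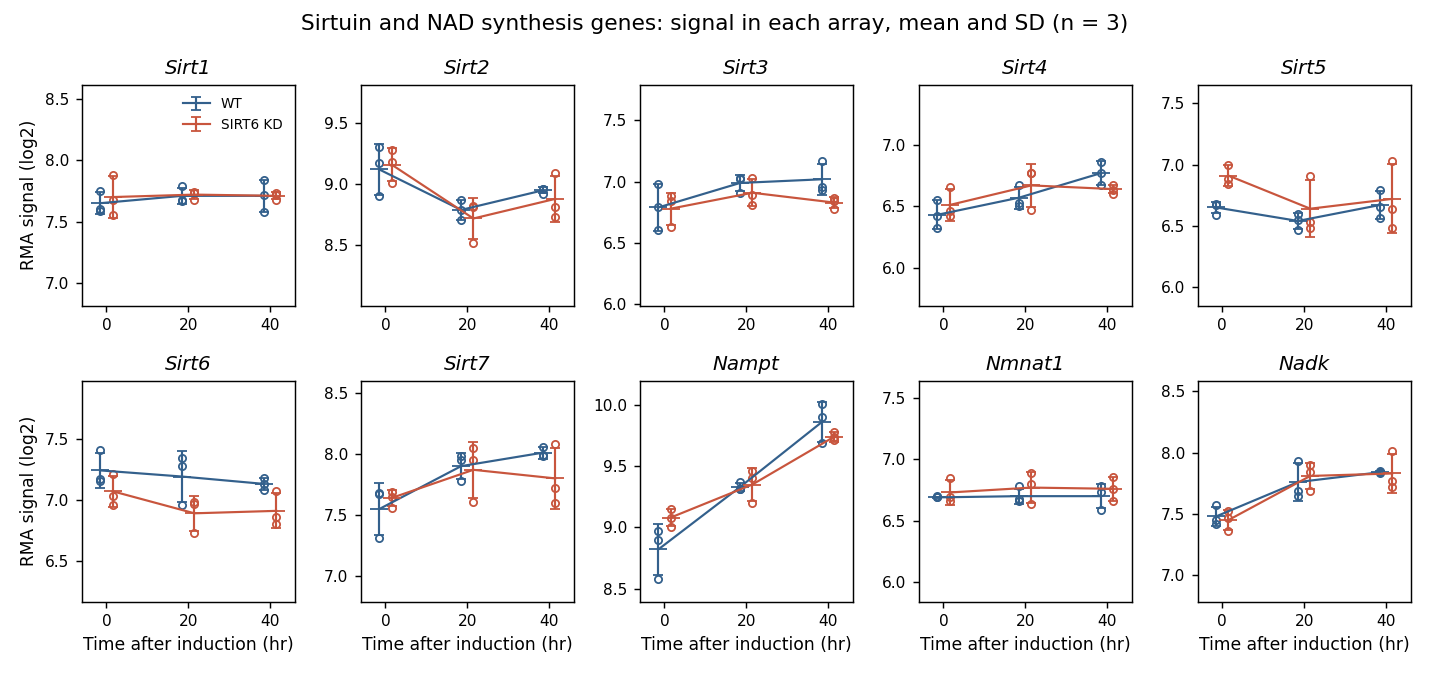
RMA signal (log2, vertical axis, each panel spanning 1.8 units) of the 10 genes against time after induction (hr). Circles are single arrays, and lines join group means with SD bars (3 arrays each, WT blue, SIRT6 KD red). Nampt climbed in both genotypes, Sirt2 dipped at 20 hr, and Sirt6 lay lower on average in SIRT6 KD cells at each time.

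Whether other sirtuins rose when SIRT6 was depleted was then examined. None of the 6 other sirtuins passed the test at any time, and none of the 10 genes did. The counts of 0 of 10 stood beside a background of 0% of all rows called at 0 hr, 0.0213% at 20 hr, 0.0935% at 40 hr and 0.378% averaged over the times. At an unadjusted p under 0.05, 2 of 10 genes passed at 0 hr (6.91% of all rows did), 1 at 20 hr (6.65%), 0 at 40 hr (11%) and 1 in the average (11.4%). Those at 0 hr were Sirt5 and Nampt, both higher in SIRT6 KD cells. The gene at 20 hr and in the average was Sirt6 itself, lower in SIRT6 KD cells. Averaged over the times, the differences of the 6 other sirtuins ran from -0.09 to 0.14, and their 95% confidence intervals together ran from -0.21 to 0.29, the upper end being a fold of 1.22. At single times the upper end was a fold of 1.43 at 0 hr, 1.28 at 20 hr and 1.24 at 40 hr. The median over the 10 genes was 0.05 at 0 hr, 0.01 at 20 hr and -0.10 at 40 hr, beside -0.01, -0.01 and 0.00 over all rows.

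Sirt1, the most studied nuclear deacetylase of the family, had nearly the same signal in all groups, with group means from 7.65 to 7.72 and single arrays from 7.55 to 7.88. Its averaged difference between SIRT6 KD and WT cells was 0.02 (95% CI -0.09 to 0.13). Sirt7, a nucleolar deacetylase, differed by -0.05 (95% CI -0.21 to 0.10), and Sirt2, which deacetylates tubulin and FOXO1, by -0.04 (95% CI -0.17 to 0.10). Among the mitochondrial sirtuins, Sirt3, the main mitochondrial deacetylase, differed by -0.09 (95% CI -0.21 to 0.03). Its 3 SIRT6 KD arrays at 40 hr (6.87, 6.84 and 6.78) all lay below the 3 WT arrays (7.17, 6.96 and 6.93), with a log2 fold change of -0.19 and an adjusted p of 0.493. At that time Sirt3 and Sirt6 were the 2 of 10 genes whose groups were apart, and 15.9% of all rows were apart. At 20 hr, 0 of 10 genes and 11.7% of all rows were apart.

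Sirt5, which removes succinyl and malonyl groups from mitochondrial proteins, was the sirtuin with the highest difference. At 0 hr its signals were 6.88, 7.0 and 6.84 in SIRT6 KD arrays and 6.68, 6.59 and 6.67 in WT arrays, so that the groups were apart. The log2 fold change was 0.26 (95% CI 0.00 to 0.52) and the adjusted p 0.723. At 20 hr and 40 hr the groups overlapped, with SIRT6 KD arrays spread from 6.48 to 7.03. The averaged difference was 0.14 (95% CI -0.01 to 0.29, adjusted p = 0.488). Sirt4 differed by 0.02 (95% CI -0.10 to 0.13).

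Nampt was the other gene whose groups were apart at 0 hr, where 12.3% of all rows were apart. Its signals were 9.15, 9.08 and 9.0 in SIRT6 KD arrays and 8.58, 8.90 and 8.97 in WT arrays. The log2 fold change was 0.26 (95% CI 0.05 to 0.47, adjusted p = 0.688), and without WT replicate 1, the lowest of the 6 arrays, it was 0.14. At 20 hr and 40 hr the difference was 0.02 and -0.12. Averaged over the times, Nampt differed by 0.05 (95% CI -0.07 to 0.18), Nmnat1 by 0.06 (95% CI -0.04 to 0.16) and Nadk by 0.00 (95% CI -0.11 to 0.12).

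**Figure D2:**
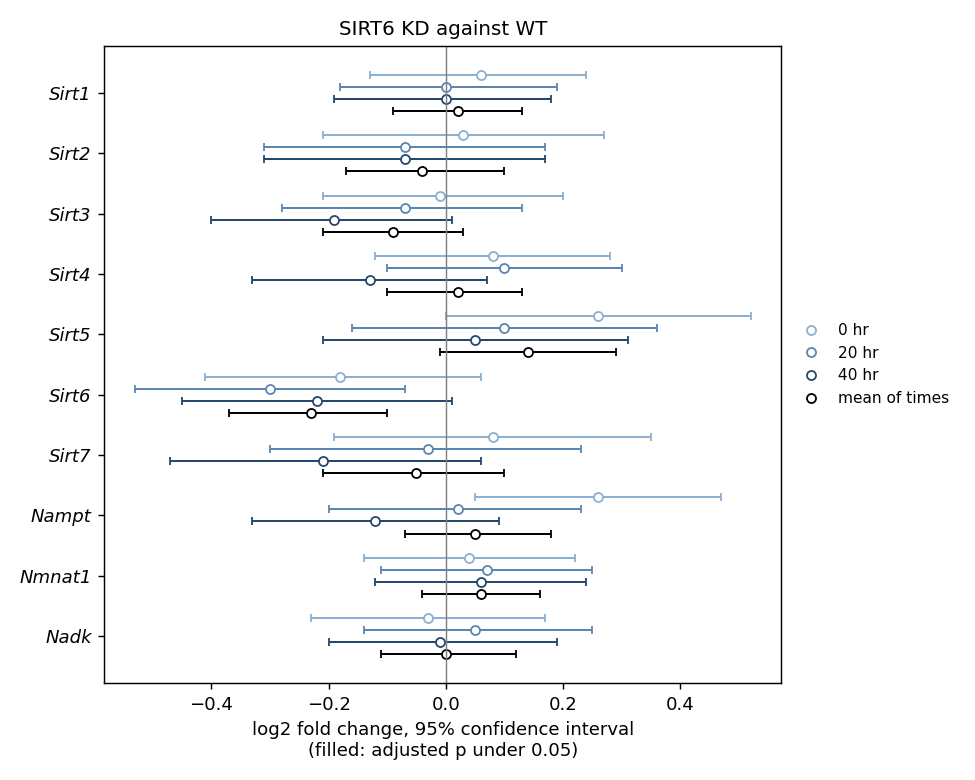
Log2 fold change of SIRT6 KD against WT (horizontal axis) for each gene at 0, 20 and 40 hr and averaged over the times, with 95% confidence intervals from limma. All circles are open because no adjusted p was under 0.05. Of the averaged differences, only that of Sirt6 has an interval on 1 side of 0 (-0.37 to -0.10).

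Of the NAD synthesis genes, Nampt and Nadk rose after induction, and Nmnat1 did not pass the test. Nampt rose in both genotypes and had the highest fold change of the 10 genes at 40 hr. WT arrays gave 8.58, 8.90 and 8.97 at 0 hr, 9.31, 9.31 and 9.37 at 20 hr, and 9.90, 10.01 and 9.69 at 40 hr. In SIRT6 KD arrays the signals were 9.15, 9.08 and 9.0, then 9.46, 9.40 and 9.20, then 9.71, 9.78 and 9.74. The groups of arrays were apart at each step in each genotype. In WT cells Nampt had risen by 0.52 at 20 hr (adjusted p = 0.00065) and at 40 hr by 1.05 (95% CI 0.83 to 1.26, adjusted p = 1.92e-07), a fold of 2.06. Between 20 hr and 40 hr it rose by 0.53 (adjusted p = 0.00138). In SIRT6 KD cells the change was 0.27 at 20 hr (adjusted p = 0.0581, and 0.0274 to 0.182 over fits without 1 array) and 0.67 at 40 hr (95% CI 0.45 to 0.88, adjusted p = 5.69e-05), a fold of 1.59. The rise from 20 hr to 40 hr was 0.39 (adjusted p = 0.0152), and 0.0826 at the highest when SIRT6 KD replicate 3 at 20 hr or replicate 2 of the 40 hr group was left out.

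The rise of Nampt was smaller in SIRT6 KD than in WT cells by 0.38 at 40 hr, and the test of that difference itself gave an adjusted p of 0.45. The change of the SIRT6 KD effect from 0 to 40 hr was -0.38 (95% CI -0.68 to -0.08, unadjusted p = 0.0163), between -0.47 and -0.26 over fits without 1 array. None of the 10 genes passed this test at either step, as did 0% of all rows, and at an unadjusted p under 0.05 Nampt was the 1 gene of 10 that passed from 0 to 40 hr (9.37% of all rows did), and 0 of 10 passed from 0 to 20 hr (5.02%). The signal at 0 hr, where SIRT6 KD arrays were above all WT arrays, enters this difference, and at 40 hr the genotypes overlapped (9.69 to 10.01 in WT and 9.71 to 9.78 in SIRT6 KD arrays). The comparisons of each genotype with its own 0 hr share those arrays.

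Nadk rose in both genotypes by 20 hr and was not called between 20 hr and 40 hr. The WT arrays gave 7.45, 7.57 and 7.42 at 0 hr, 7.69, 7.93 and 7.65 at 20 hr, and 7.83, 7.84 and 7.85 at 40 hr. In SIRT6 KD arrays they were 7.47, 7.52 and 7.36, then 7.69, 7.90 and 7.84, then 8.01, 7.72 and 7.77. All later arrays lay above all 0 hr arrays of their genotype. The rise was 0.28 at 20 hr and 0.36 at 40 hr in WT cells (adjusted p = 0.0331 and 0.00717), and 0.36 and 0.38 in SIRT6 KD cells (adjusted p = 0.00681 and 0.00463). The WT call at 20 hr was lost without WT replicate 1 or 3 at 0 hr or WT replicate 2 at 20 hr, with an adjusted p of up to 0.198, and in the fit on the 2 compared groups alone (adjusted p = 0.0614). The signals of Nmnat1 lay close together. Its group means were 6.69, 6.70 and 6.70 in WT and 6.73, 6.77 and 6.76 in SIRT6 KD cells, and its log2 change by 40 hr was 0.01 (95% CI -0.17 to 0.18) in WT and 0.03 (95% CI -0.15 to 0.20) in SIRT6 KD cells.

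Among the sirtuins, Sirt2 fell at 20 hr in both genotypes. Signals in WT arrays were 8.90, 9.30 and 9.17 at 0 hr, 8.71, 8.87 and 8.79 at 20 hr, and 8.96, 8.92 and 8.96 at 40 hr. Those in SIRT6 KD arrays were 9.01, 9.28 and 9.18, then 8.52, 8.81 and 8.82, then 9.09, 8.73 and 8.81. All arrays at 20 hr were below all arrays at 0 hr, and at 40 hr the groups overlapped with those at 0 hr. The change at 20 hr was -0.33 in WT (adjusted p = 0.0375) and -0.44 in SIRT6 KD cells (adjusted p = 0.00693), with a change of the SIRT6 KD effect of -0.11 (adjusted p = 0.973). In WT cells the call was lost without WT replicate 2 or 3 at 0 hr or WT replicate 1 or 3 at 20 hr, with an adjusted p of up to 0.194, and in SIRT6 KD cells it held without each array in turn (adjusted p of at most 0.0433). By 40 hr the change was -0.18 (adjusted p = 0.336) and -0.28 (adjusted p = 0.0856).

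Sirt7 and Sirt4 rose in WT cells by 40 hr. Sirt7 signals in WT arrays were 7.31, 7.68 and 7.67 at 0 hr, 7.78, 7.98 and 7.95 at 20 hr, and 7.99, 7.98 and 8.06 at 40 hr, with each later group above the 0 hr group. The change of Sirt7 was 0.35 by 20 hr (adjusted p = 0.0513) and reached 0.46 by 40 hr (adjusted p = 0.0127, and 0.0888 without WT replicate 1 at 0 hr). In SIRT6 KD arrays Sirt7 gave 7.56, 7.65 and 7.69, then 7.61, 7.95 and 8.05, then 8.08, 7.60 and 7.72. The SIRT6 KD groups overlapped, and the change at 40 hr was 0.17 (adjusted p = 0.384). The difference between the genotypes in this change, -0.29 (95% CI -0.67 to 0.09), had an adjusted p of 0.627, so that a rise in WT cells alone was not shown. Sirt4 in WT arrays was 6.42, 6.55 and 6.32 at 0 hr and 6.67, 6.77 and 6.86 at 40 hr, a change of 0.33 (adjusted p = 0.0153). That call was lost without WT replicate 3 at 0 hr or at 40 hr (adjusted p of up to 0.0752), and the 0 hr signals were at or below the receptor level. In SIRT6 KD cells Sirt4 changed by 0.12 (adjusted p = 0.402), and the test between the genotypes gave -0.21 (adjusted p = 0.637). Sirt1, Sirt3, Sirt5 and Sirt6 passed the test in neither genotype at either time. Their changes by 40 hr ran from -0.11 for Sirt6 to 0.23 for Sirt3 in WT cells, and from -0.19 for Sirt5 to 0.04 for Sirt3 in SIRT6 KD cells.

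Counted over the 10 genes, 3 passed in WT cells at 20 hr (25.8% of all rows did), 4 at 40 hr (22.8%) and 1 between 20 hr and 40 hr (9%). In SIRT6 KD cells the counts were 2 at 20 hr (25.4%), 2 at 40 hr (23.3%) and 1 between these times (10.3%). All 4 genes called in WT cells at 40 hr were higher, and 12.2% of all rows were called higher there. Groups of arrays were apart for 4 genes at 20 hr, 4 at 40 hr and 3 between these times in WT cells (38.2%, 34.5% and 26% of all rows), and for 3, 2 and 1 genes in SIRT6 KD cells (36.1%, 37.6% and 22.6%). The median change of the 10 genes by 40 hr was 0.15 in WT and 0.03 in SIRT6 KD cells, beside 0.00 and 0.04 over all rows. No test of the 10 genes as a group was made.

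**Figure D3:**
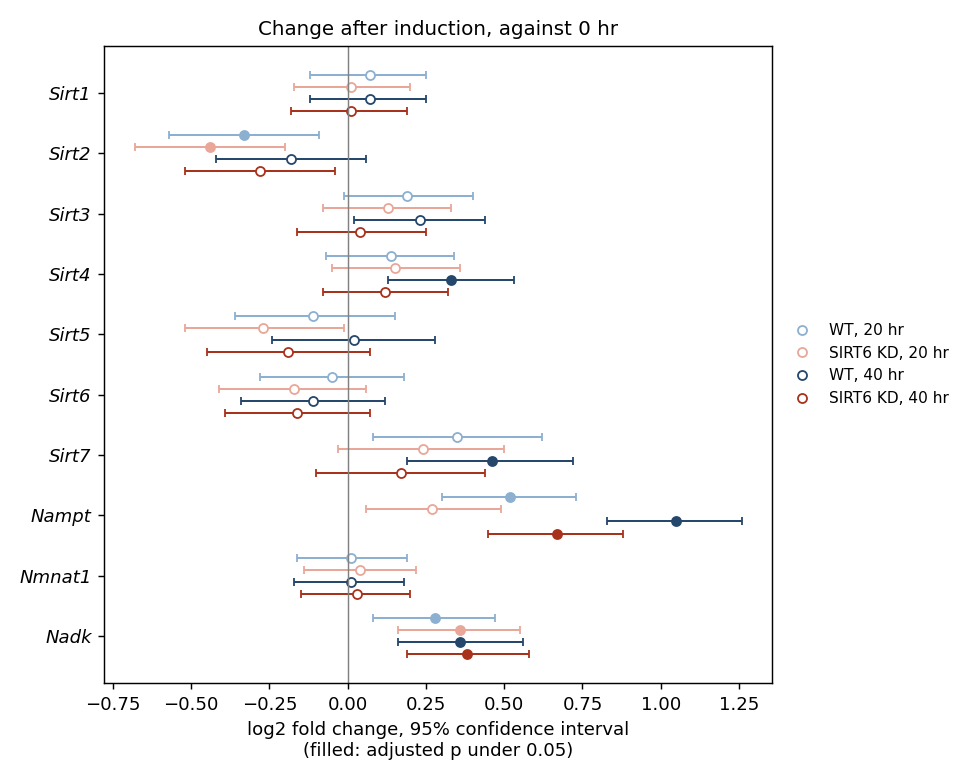
Log2 fold change against 0 hr (horizontal axis) at 20 hr and 40 hr in WT (blue) and SIRT6 KD cells (red), with 95% confidence intervals from limma and filled circles where the adjusted p was under 0.05. Nampt reached 1.05 in WT and 0.67 in SIRT6 KD cells at 40 hr, and Sirt2 lay at -0.33 and -0.44 at 20 hr.

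Within groups, some of the genes moved together from array to array. After subtraction of the group means, Sirt2, Sirt6, Sirt7 and Nadk correlated with each other at r from 0.62 to 0.92 over the 18 arrays (6 pairs), with Sirt2 and Sirt7 at 0.92 and Sirt2 and Sirt6 at 0.83. The 39 other pairs ran from -0.63 to 0.49. These genes were grouped by the same correlations, so their distance from the other pairs follows from that choice. All values come from the same 18 arrays, and these correlations are a description. Array medians moved with them, since the deviations of Sirt2, Sirt6, Sirt7 and Nadk correlated with the deviation of the array median at -0.62, -0.46, -0.64 and -0.51, and the part of the array in the result was not tested. After cyclic loess between arrays the 6 correlations ran from 0.60 to 0.90. The 18 deviations of Sirt2 ranged from -0.22 (WT replicate 1 at 0 hr) to 0.21 (SIRT6 KD replicate 1 at 40 hr). Because Sirt2 itself differed little between the genotypes, the difference between the Sirt6 and Sirt2 signals of an array was also taken, a choice made after these correlations had been seen. On that measure all 3 SIRT6 KD arrays lay below all 3 WT arrays at each time, by 0.21 at 0 hr, 0.23 at 20 hr and 0.15 at 40 hr, each with an exact permutation p of 0.1. Averaged over the times, the difference was -0.20, with an exact permutation p of 0.00025, the smallest that the 8000 splits allow. Sirt2 was chosen for its correlation with Sirt6 and its small difference between the genotypes. Neither the separation of the arrays nor these p values take account of that choice, so they are a description. A difference of signals shows an unequal change of Sirt6 and Sirt2 and does not say which of them moved.

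**Figure D4:**
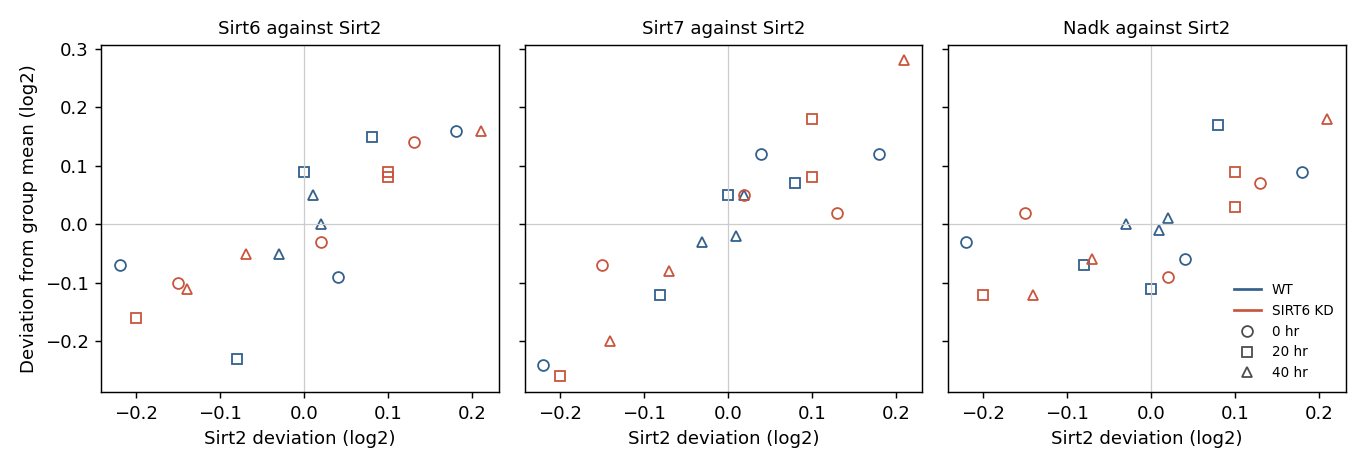
Deviation from the group mean (log2) of Sirt6, Sirt7 and Nadk (vertical axes) against that of Sirt2 (horizontal axis) in the 18 arrays, coloured by genotype and shaped by time. Points run from lower left to upper right in each panel, with r = 0.92 for Sirt7.

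The genes whose signals followed Sirt6 most closely over the 18 arrays, among 11880 genes above the receptor level, were Abhd16a (r = 0.864), Usp30 (0.846) and Rela (0.842). Those closest to Nampt were Pank3 (0.969), Gpcpd1 (0.965) and Tmx4 (0.963). These values are the highest of 11880 correlations for each gene, so they are a description. The parts of time, genotype and array in them were not tested.

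The other genes of NAD synthesis were described next, from a list of 16 that were all measured, of which 6 had a mean above the receptor level. No gene of the list was called between the genotypes at any time or in the average, and 0% to 0.378% of all rows were. At 40 hr, 1 was higher and 2 were lower than at 0 hr in WT cells, and 3 were higher and 3 lower in SIRT6 KD cells. Of all rows, 12.2% were called higher and 10.6% lower in WT cells at 40 hr, and 10.7% and 12.5% in SIRT6 KD cells. Nmnat2, the cytosolic and Golgi-associated counterpart of Nmnat1 known best from axons, rose in both genotypes. Its signals in WT arrays were 9.53, 9.56 and 9.35 at 0 hr and 10.16, 10.17 and 10.33 at 40 hr. In SIRT6 KD arrays they were 9.37, 9.62 and 9.40 at 0 hr and 10.14, 9.97 and 10.12 at 40 hr. The groups were apart, and the rise was 0.74 in WT (adjusted p = 4.74e-06) and 0.62 in SIRT6 KD cells (adjusted p = 3.96e-05). Nadk2, the mitochondrial NAD kinase, moved the other way from Nadk at 40 hr, with a change of -0.47 in WT (adjusted p = 0.000852) and -0.60 in SIRT6 KD cells (adjusted p = 7.71e-05), and at 20 hr its change was 0.05 and 0.11. Nmrk1, a nicotinamide riboside kinase, fell in SIRT6 KD cells by 0.36 at 20 hr and by 0.30 at 40 hr (adjusted p = 0.0138 and 0.042), and without SIRT6 KD replicate 2 or 3 at 0 hr neither call was made (adjusted p of up to 0.172). The call at 40 hr was lost in 10 settings in all, the unmoderated test, median centring and the test of all rows among them. Its change in WT cells was -0.24 and -0.21 (adjusted p = 0.101 and 0.189). Afmid, of the route from tryptophan, fell by 0.35 at 40 hr in SIRT6 KD cells (adjusted p = 0.013, and 0.0763 or 0.0598 without replicate 1 or 2 of that group). Tdo2, which opens that route, fell by 0.29 at 40 hr in WT cells (adjusted p = 0.0132, and 0.0601 or 0.0535 without WT replicate 1 or 3 at 40 hr) with a mean below the receptor level. For a change of the SIRT6 KD effect from 0 to 20 hr or to 40 hr, 0 genes of the list were called, beside 0% of all rows. A fall in 1 genotype alone was thus not shown for any of them.

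Among the other enzymes that consume NAD, 15 of 17 listed genes were measured, mostly ADP-ribosyltransferases of the PARP family, and more of them fell than rose. In WT cells 2 rose and 9 fell at 20 hr, and 1 rose and 8 fell at 40 hr. In SIRT6 KD cells 2 rose and 8 fell at 20 hr, and 1 rose and 7 fell at 40 hr. Of all rows, 14.1% were called higher and 11.7% lower in WT cells at 20 hr, and 12.2% and 10.6% at 40 hr. In SIRT6 KD cells the shares were 13.2% and 12.2% at 20 hr, and 10.7% and 12.5% at 40 hr. The median change of the list at 20 hr was -0.33 in WT and -0.30 in SIRT6 KD cells, beside 0.00 and 0.03 over all rows. Parp14, a mono-ADP-ribosyltransferase of interferon responses, went from 7.26, 7.44 and 7.51 at 0 hr to 6.17, 6.25 and 6.21 at 20 hr in WT arrays, below the receptor level. In SIRT6 KD arrays it went from 7.56, 7.58 and 7.39 to 6.37, 6.38 and 6.44, also below that level. The change was -1.19 in WT (adjusted p = 3.27e-09) and -1.11 in SIRT6 KD cells (adjusted p = 8.95e-09). Parp8, Parp9 and Parp12 fell by 0.92, 0.68 and 0.82 in WT cells at 20 hr. Parp1, the main PARP of DNA repair, went the other way and rose by 0.72 in WT and 0.68 in SIRT6 KD cells at 20 hr (adjusted p = 1.34e-05 and 2.99e-05). None of the 15 was called between SIRT6 KD and WT cells at any time or in the average. Of all rows, 0% to 0.378% were called in these comparisons. At 20 hr the genotypes were apart for some genes of the list, for example Parp8, Parp14 and Sarm1, higher in SIRT6 KD arrays, and Parp11, lower. The number apart among the 15 is not given here. It cannot be set against the 11.7% of all rows that were apart at that time, so the examples are no result about the list. Parp14 and Sarm1 lay below the receptor level in both genotypes then, which limits what their differences can show.

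Of 9 genes of nicotinamide clearance, NAD transport and redox, 4 fell at 20 hr and 2 at 40 hr in each genotype, and none rose. Called lower among all rows were 11.7% in WT and 12.2% in SIRT6 KD cells at 20 hr, and 10.6% and 12.5% at 40 hr. Nnmt, which methylates nicotinamide and so removes it from recycling, fell at 20 hr from 6.70, 6.72 and 6.89 to 5.94, 6.08 and 6.15 in WT arrays, below the receptor level, so that the size of the fall is limited by the background. It was back at 6.70, 6.87 and 6.68 at 40 hr. The change at 20 hr was -0.72 in WT (adjusted p = 1.41e-05) and -0.53 in SIRT6 KD cells (adjusted p = 0.000416). Nnt, the mitochondrial transhydrogenase that makes NADPH, fell by 0.57 in WT and 0.74 in SIRT6 KD cells at 40 hr (adjusted p = 1.72e-05 and 7.1e-07). Aox1, which oxidises methylnicotinamide, fell by 0.35 and 0.33 at that time (adjusted p = 0.00205 and 0.00394). Nudt13 fell by 0.26 and 0.25 at 20 hr (adjusted p = 0.0265 and 0.0328), and both calls were lost under cyclic loess, after median centring and without single arrays (adjusted p of up to 0.17).

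Nudt12, a peroxisomal enzyme that hydrolyses NADH and NAD, was the 1 gene of all these lists that was called between the genotypes (0.378% of all rows were called in the average over the times). Signals in SIRT6 KD arrays were 6.93, 7.03 and 7.17 at 0 hr, 6.95, 6.89 and 7.0 at 20 hr, and 7.02, 6.91 and 6.87 at 40 hr. Those in WT arrays were 6.78, 6.71 and 6.86, then 6.72, 6.87 and 6.69, then 6.74, 6.60 and 6.53. All SIRT6 KD arrays were above all WT arrays at each time. Averaged over the times, Nudt12 was higher by 0.25 (standard error 0.049, adjusted p = 0.0291), a fold of 1.19. The adjusted p was 0.0537 with a replicate block, 0.07 with all rows tested and 0.078 at the highest without 1 array, and the call was lost without any 1 of 7 arrays (WT replicate 2 at 0 hr, 1 and 3 at 20 hr, 2 and 3 at 40 hr, or in SIRT6 KD cells replicate 3 at 0 hr and 2 at 40 hr). At single times the adjusted p was 0.613, 0.716 and 0.157.

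Regulators and partners of SIRT1 were represented by 7 of 9 listed genes. In WT cells 2 rose and 2 fell at 20 hr and 2 rose at 40 hr, and in SIRT6 KD cells 2 rose and 1 fell at 20 hr and 1 rose and 1 fell at 40 hr (25.8%, 22.8%, 25.4% and 23.3% of all rows were called in these comparisons). Rps19bp1, the activator of SIRT1 known as AROS, rose by 0.42 at 20 hr and 0.55 at 40 hr in WT cells (adjusted p = 0.00101 and 9.1e-05) and by 0.42 at 20 hr in SIRT6 KD cells (adjusted p = 0.00123). Its change at 40 hr in SIRT6 KD cells was 0.24 (adjusted p = 0.0541), and the test between the genotypes gave an adjusted p of 0.464. Foxo1, a forkhead factor that SIRT1 and SIRT2 deacetylate, rose by 0.53 and 0.49 at 40 hr (adjusted p = 0.000364 and 0.000851). Ppargc1a, the coactivator PGC-1α, fell at 20 hr by 0.72 in WT (adjusted p = 0.000105) and by 1.21 in SIRT6 KD cells (adjusted p = 2.25e-07). At 40 hr it was 0.58 below 0 hr in SIRT6 KD cells (adjusted p = 0.00117) and changed by -0.16 in WT cells (adjusted p = 0.419), with an adjusted p of 0.463 for the difference between the genotypes. Hic1, a repressor of Sirt1 transcription, fell by 0.34 at 20 hr in WT cells (adjusted p = 0.0353) with a mean below the receptor level, and the call was lost without any 1 of WT replicates 2 and 3 at 0 hr and all 3 at 20 hr (adjusted p of up to 0.126). None of the 7 genes was called for a change of the SIRT6 KD effect from 0 to 20 hr or to 40 hr, as was 0% of all rows. A change in 1 genotype alone was thus not shown for any of them. The Sirt1 signal itself did not pass the test in any comparison.

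The circadian clock is known to drive Nampt transcription through E-boxes, and 7 of 8 listed clock genes were measured. In WT cells 3 rose and 3 fell at 20 hr, and 4 rose and 2 fell at 40 hr. In SIRT6 KD cells 2 rose and 4 fell at 20 hr, and 2 rose and 1 fell at 40 hr. The share of all rows called in either direction was 25.8% and 22.8% in WT cells, and 25.4% and 23.3% in SIRT6 KD cells. Per1, a repressor of the clock and a glucocorticoid target, rose from 8.17, 8.15 and 8.07 to 9.0, 9.01 and 9.0 at 20 hr in WT arrays. In SIRT6 KD arrays it rose from 7.96, 7.97 and 8.0 to 8.74, 8.94 and 8.81. Between 0 hr and 20 hr the signal changed by 0.87 and 0.86 (adjusted p = 1.23e-08 and 1.74e-08). Clock rose by 0.53 in WT and 0.54 in SIRT6 KD cells at 40 hr (adjusted p = 0.000331 and 0.000325). Dbp, an output of the clock, fell by 0.49 in WT and 0.35 in SIRT6 KD cells at 40 hr (adjusted p = 0.000777 and 0.0122, the latter 0.0603 without SIRT6 KD replicate 2). Cry2, a repressor of the clock, fell by 0.63 in WT and 0.52 in SIRT6 KD cells at 20 hr (adjusted p = 2.05e-05 and 0.000149). Nr1d1, which encodes the receptor REV-ERBα, fell at 20 hr by 0.56 in WT and 0.49 in SIRT6 KD cells (adjusted p = 0.000244 and 0.00103). At 40 hr its change was -0.49 in WT (adjusted p = 0.00113) and -0.26 in SIRT6 KD cells (adjusted p = 0.0673). The Nampt promoter window held no E-box, and other stretches of the gene were not examined.

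**Figure D5:**
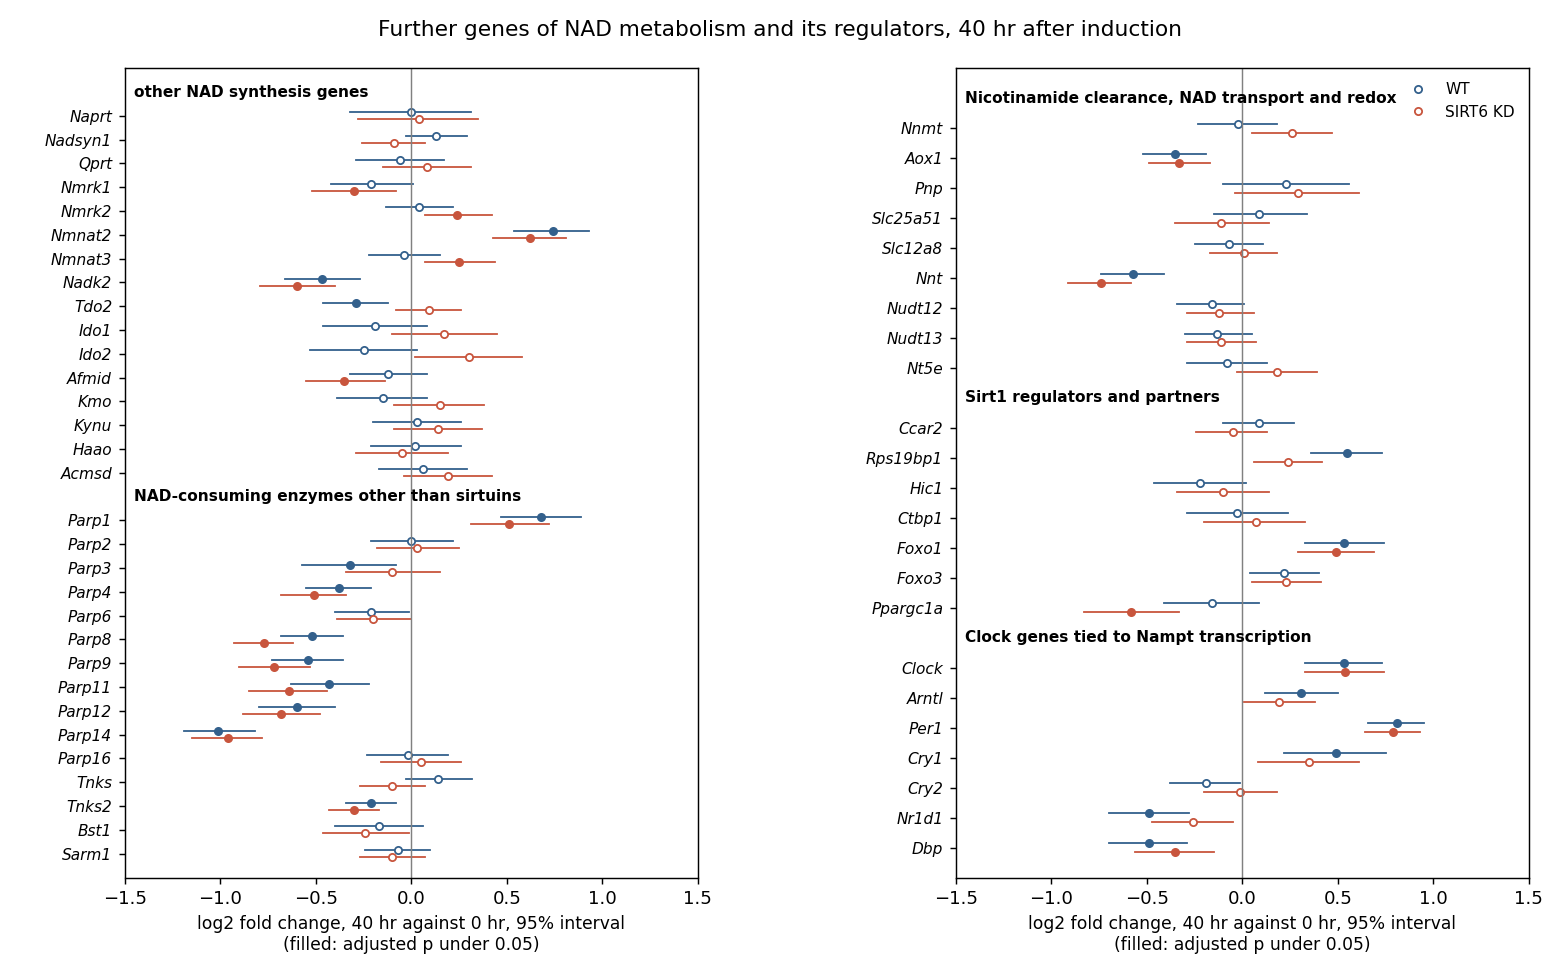
Log2 fold change at 40 hr against 0 hr (horizontal axis, 95% confidence intervals from limma) of the further genes of NAD metabolism and its regulators, in WT (blue) and SIRT6 KD cells (red), with filled circles where the adjusted p was under 0.05. Parp14 lay lowest in WT cells (-1.01), Per1 highest (0.81), and Nmnat2 rose by 0.74.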

How the data were processed

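Total RNA was isolated with Trizol and hybridised to Mouse Gene ST arrays, per the paper. The deposited log2 values come from RMA as run by the authors (named in the submitters' processing notes without software or version), 1 value per row and none pooled. No build for this step is given in the sources used here. All 18 arrays and every per-sample column were used.

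Rows with no symbol (16004) or several (1820) were left out, and no signal filter was applied. A joint model of the 6 groups over 23521 rows was fitted with limma 3.58.1 in R 4.3.3 (12 residual and 6.37 prior degrees of freedom). Benjamini-Hochberg adjustment ran over all rows, and genes were called at an adjusted p under 0.05. The fit was run on simulated data with changes of known size. How well it recovers changes as small as those between the genotypes is not given here. The 10 genes are always named. Of each further list, up to 4 called genes with the largest change per comparison and with groups apart are named (for the average, called sufficed), plus the 3 genes most like Sirt6 and Nampt. Symbols came from the platform annotation, and positions and promoters from RefSeq. The genes, lists and tests were chosen with earlier results of these data known. Parp10, Cd38, Trp53, Ncor1 and Per2 were not analysed here. Alternatives were other variance models, a replicate block, a dim filter, all 41345 rows, other scalings, array weights, other thresholds, a fit on the compared groups alone and leaving out each array.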

Additional observations from a re-analysis of the deposited data

How the results depend on the processing

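No gene changed sign while passing the test under any alternative. Of the 12 counts of called genes, the 4 between SIRT6 KD and WT cells and the 2 for a change of that effect were 0 under every setting run. With a fold above 1.5 required as well, at an adjusted or an unadjusted p under 0.05, the counts in WT cells were 0 at 20 hr, 1 (Nampt) at 40 hr and 0 between these times, and in SIRT6 KD cells 0, 1 (Nampt) and 0. With all 41345 rows tested, the WT count at 20 hr was 1 (Nampt). Leaving out 1 array at a time gave 2 to 4 genes in WT cells at 20 hr, 3 to 5 at 40 hr and 1 throughout between these times, and in SIRT6 KD cells 2 to 4, 2 to 3 and 0 to 1. Without SIRT6 KD replicate 1 at 20 hr, 4 genes passed at 20 hr in SIRT6 KD cells (Sirt2, Sirt5, Sirt7 and Nadk). Without SIRT6 KD replicate 3 at 20 hr or replicate 2 at 40 hr, 0 passed between 20 hr and 40 hr. Same-numbered arrays of different groups did not deviate together (mean r = -0.02 over 45 pairs), and with the replicate number as a block the counts stayed at 3, 4 and 1 in WT and 2, 2 and 1 in SIRT6 KD cells and at 0 between the genotypes. Sirt7 in WT cells at 20 hr passed in 13 settings, with an adjusted p as low as 0.0193, and Nampt in SIRT6 KD cells at 20 hr in 9, as low as 0.0274. Sirt2 in SIRT6 KD cells at 40 hr passed in 3. Sirt2 in WT cells at 20 hr also missed the threshold in the unmoderated test and after median centring. Over the 10 genes and 12 comparisons, and leaving aside the settings that require a fold above 1.5, 3312 alternative values stayed on their side of the threshold, 31 newly passed and 17 no longer passed. In the fit on the compared groups alone, Sirt7 was gained (adjusted p = 0.0443) and Nadk lost (0.0614) in WT cells at 20 hr. Other scalings moved the median of all rows by at most 0.09. The averaged Sirt6 difference lay between -0.27 and -0.20 under all settings, and that relative to Sirt2, which was added after the data were seen, between -0.22 and -0.17. Signals near the receptor level, as for Sirt4, Sirt5 and Nmnat1, limit what their differences can show.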
